A study of Mus musculus with 4 samples.

Results

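Chemokine genes of the gut epithelium, 8 of the 32285 genes in the files, were followed across the cell types of irradiated mouse small intestine: Cxcl9, Cxcl10, Cxcl1, Cxcl16, Cx3cl1, Ccl20, Ccl25 and Ccl28. They were taken by name from the gene table. Single-cell RNA sequencing compared wild-type mice (WT) with VilCreIfnlr1fl/fl mice (KO), in which a Cre recombinase driven by the villin promoter deletes floxed Ifnlr1, the receptor chain specific to interferon-λ, in intestinal epithelium and leaves it in other cells. There were 3 mice of each genotype, and all of them received 11 Gy of gamma irradiation under ketamine and xylazine sedation, with the head, thorax and forelimbs behind lead; no unirradiated group was analysed here. The series design sets tissue collection at 96 h, the preparation protocol at 3 days, and the labels used here give no age. Live EPCAM-positive, CD45-negative cells were sorted, each mouse was marked by a hashtag (a DNA barcode attached to its cells), and the mice of a genotype were pooled into 1 library. Pool and genotype therefore coincide and cannot be told apart.

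Chemokines are small secreted proteins that attract leukocytes along gradients through G protein-coupled receptors. Cxcl9 and Cxcl10 are interferon-induced ligands of Cxcr3, a receptor of activated T and NK cells, and Cxcl1 attracts neutrophils through Cxcr2. Cxcl16 and Cx3cl1 are made as membrane-bound proteins that metalloproteases can release, and they bind Cxcr6 and Cx3cr1. Ccl20 recruits Ccr6-bearing lymphocytes and dendritic cells, Ccl25 is the small-intestinal ligand of the gut-homing receptor Ccr9, and Ccl28 is a mucosal ligand of Ccr10 and Ccr3.

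The libraries held 102915321 (WT) and 110960113 (KO) UMIs of genes (unique molecular identifiers, which count captured transcripts). After filtering, 8737 cells without a hashtag doublet were clustered, of which 2773 WT and 2868 KO cells carried the hashtag of 1 mouse, 843 to 1062 cells and 11142876 to 35999518 UMIs a mouse. The libraries shared 28 barcodes, of which 9 passed the filters in both. WT2 and KO2, the mice with hashtag number 2, stood apart: the crypt progenitor-like cluster 12 held 86 cells of WT2 and 161 of KO2 and none assigned to another mouse, cluster 13 held 74 and 132 against 0 to 3 of each other mouse, and the median UMIs per cell were 12657 and 20575 against 8527 to 11623 in the other 4 mice. The enterocyte-like class was spread over different clusters in the genotypes, mainly clusters 2, 4, 6 and 7 in WT and clusters 0 and 5 in KO. Ifnlr1 itself was read at 22.6, 15.5 and 26.3 CPM (UMIs of the gene scaled to the same total in every sum) in WT mice 1 to 3 and at 26.9, 15.97 and 22.7 CPM in KO mice 1 to 3. These are 3′ tags and the labels do not say which exons are floxed, so this level does not check the genotype. In enterocyte-like cells, too, the groups overlapped, at 35.4, 23.9 and 34.2 CPM in WT and 39.7, 22.5 and 33.02 CPM in KO mice, and WT and KO below mean the libraries labelled so. Markers of T cells, macrophages, neutrophils and stroma summed to at most 2.60 CPM in the enterocyte-like cells of any mouse, whereas the B and plasma cell list reached 2516 CPM in those of WT2.

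Cxcl9, Cxcl10 and Cxcl1 lie on mouse chromosome 5 (build mm10, positions from GENCODE vM21): Cxcl1 (ENSMUSG00000029380) at chr5:90891241-90893115, Cxcl9 (ENSMUSG00000029417) at chr5:92321347-92328079 and Cxcl10 (ENSMUSG00000034855) at chr5:92346638-92348889. Their upstream sequences are shown because the transcripts of all 3 were found together in single cells, described further on. RefSeq promoter windows (GRCm38.p6, 250 bases before to 50 after the start) were available for 7 of the 8 members, and were searched on both strands for 3 motifs: a core of the interferon-stimulated response element (GAAA, any 2 bases, GAAA), the GAS element of STAT dimers (TTC, any 3 bases, GAA) and a form of the NF-κB site (GGGA, any base, TT, any base, CC). The 250 bases before the start are printed 5′ to 3′ on the gene's strand, with matches in capitals.
Cxcl10, chr5:92348890-92349139, minus strand: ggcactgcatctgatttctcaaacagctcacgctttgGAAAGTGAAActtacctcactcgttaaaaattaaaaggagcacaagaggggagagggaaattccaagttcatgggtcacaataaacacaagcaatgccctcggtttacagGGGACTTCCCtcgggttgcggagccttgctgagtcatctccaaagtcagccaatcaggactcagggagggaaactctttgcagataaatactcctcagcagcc
Cxcl9, chr5:92328080-92328329, minus strand: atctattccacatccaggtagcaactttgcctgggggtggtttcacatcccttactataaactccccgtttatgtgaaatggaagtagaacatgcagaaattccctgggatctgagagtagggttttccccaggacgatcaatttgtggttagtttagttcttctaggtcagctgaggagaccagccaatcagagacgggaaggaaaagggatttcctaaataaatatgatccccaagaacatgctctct
Cxcl1, chr5:90890995-90891244, plus strand: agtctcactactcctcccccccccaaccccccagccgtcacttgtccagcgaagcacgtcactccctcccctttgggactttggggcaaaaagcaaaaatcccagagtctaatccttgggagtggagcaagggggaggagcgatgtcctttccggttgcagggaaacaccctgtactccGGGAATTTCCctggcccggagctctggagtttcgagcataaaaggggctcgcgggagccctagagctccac

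Cxcl10 held GAAAGTGAAA starting 213 bases and GGGACTTCCC 103 bases before the start, and Cxcl1 held GGGAATTTCC 71 bases before it. None of the 3 motifs was found in the windows of Cxcl9, Cx3cl1, Ccl20, Ccl25 or Ccl28. Among all 32851 RefSeq mouse promoter windows of the same length, 3.44% held the first motif, 8.3% the second and 1.2% the third. A match of letters is a description and does not show binding.

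The 8 genes fell into broadly detected and rarely detected members. Cxcl16 was seen in 50.1% of the 8737 cells, Ccl25 in 31.6%, Cx3cl1 in 31.1% and Ccl28 in 6.25%, whereas Ccl20 was seen in 1.32%, Cxcl10 in 0.630%, Cxcl1 in 0.320% and Cxcl9 in 0.229%. Since depth differs between clusters, shares below come from cells thinned to 2000 UMIs, which left out 488 WT and 58 KO cells, and clusters are described without tests because they were formed from these same cells. Chemokine genes were kept out of the clustering.

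**Figure D1:**
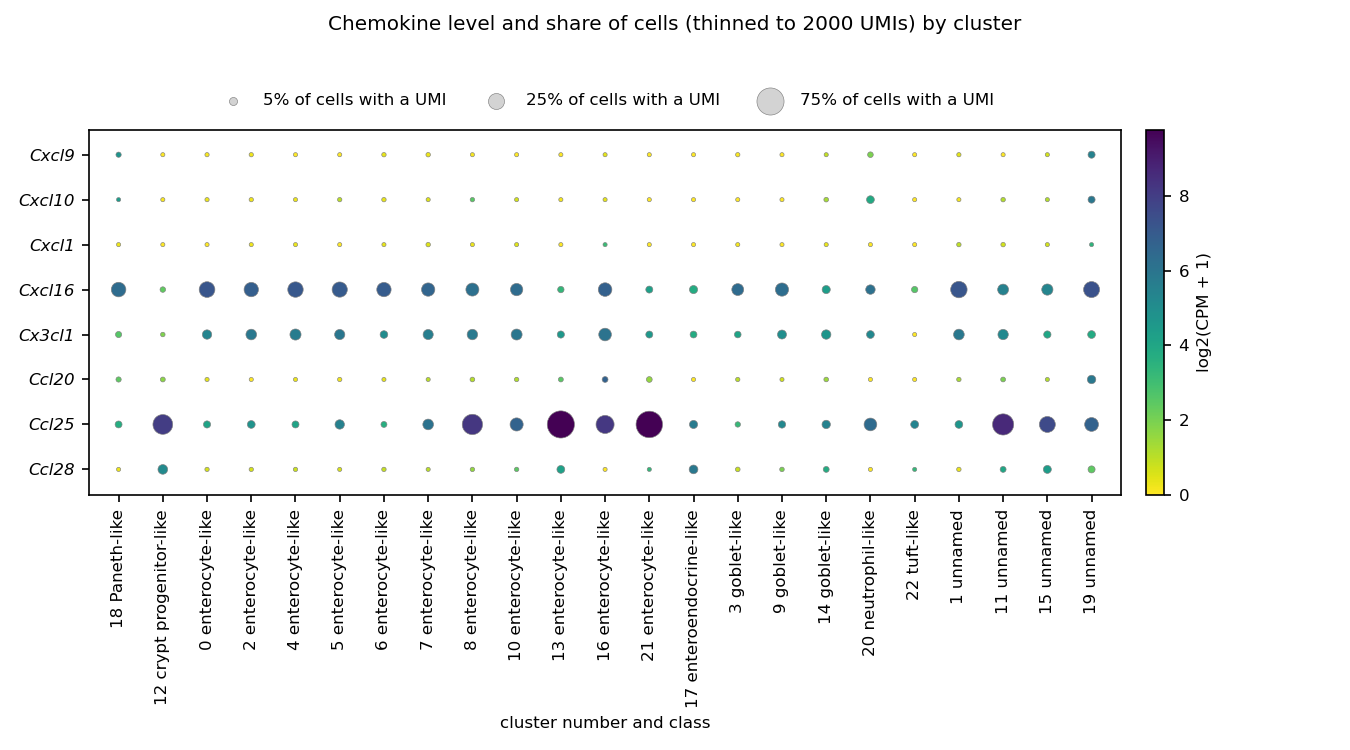
Level and share of cells of each member in the 23 clusters, with the cluster number and class on the x axis. Colour is log2(CPM + 1) and circle area rises with the percent of cells holding a UMI after thinning to 2000 UMIs. Ccl25 peaks in clusters 13 and 21, Cxcl16 and Cx3cl1 spread over the enterocyte-like clusters, and Cxcl9 and Cxcl10 stand out in the Paneth-like cluster 18 and the unnamed cluster 19.

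Cxcl16 (ENSMUSG00000018920, chr11:70453983-70459984, minus strand, overlapping Zmynd15 on the other strand) was detected at its highest levels in enterocyte-like, Paneth-like, neutrophil-like and goblet-like cells. Its level was 83.7 CPM in enterocyte-like, 81.2 CPM in Paneth-like, 71.9 CPM in neutrophil-like (counting interval 46.96 to 105 CPM) and 61.6 CPM in goblet-like cells, against 12.8 CPM in enteroendocrine-like, 4.94 CPM in tuft-like and 4.26 CPM in crypt progenitor-like cells. The 95% counting intervals of enterocyte-like and Paneth-like cells overlapped, at 81.5 to 85.8 and 73.4 to 89.6 CPM, and so did those of tuft-like and crypt progenitor-like cells. The highest clusters were the unnamed cluster 19 (160 CPM), led by Anxa1, Anxa8, F3 and Krt15, the unnamed cluster 1 (142 CPM), led by the oxidase genes Duoxa2 and Duox2 with Nos2 and Saa1, and the enterocyte-like clusters 0 (142 CPM) and 4 (140 CPM).

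After thinning, Cxcl16 was present in 19.3% of enterocyte-like cells (exact Clopper-Pearson 95% interval 18.2 to 20.4%) and in 1.39% of crypt progenitor-like cells (0.381 to 3.53%). The unthinned shares were 53.5% and 15.6% at median depths of 8090 and 59092 UMIs. As a guide to free RNA in the droplets, 2.38% of tuft-like cells (1 of 42, median 15380 UMIs) held a UMI. In the neutrophil-like cells, leukocytes that can make Cxcl16 themselves, it was 7.58% (5 of 66, median 3164.5 UMIs).

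Cx3cl1 (ENSMUSG00000031778, chr8:94772009-94782427, plus strand), the membrane-bound fractalkine, had its highest class level in enterocyte-like cells. It was 44.0 CPM there (counting interval 42.4 to 45.6), 35.9 CPM in neutrophil-like cells (19.1 to 61.5, which holds the enterocyte-like value), 20.2 CPM in goblet-like, 12.8 CPM in enteroendocrine-like, 4.95 CPM in Paneth-like and 2.67 CPM in crypt progenitor-like cells, and no UMI was found in 42 tuft-like cells, which allows a share of up to 7.14% of cells with a UMI. Among clusters the highest levels were 65.0 CPM in cluster 16, which expressed the ileal bile acid genes Fabp6 and Slc10a2, 61.0 CPM in cluster 10 and 59.8 CPM in cluster 5, whose counting intervals overlap. A UMI was present in 8.58% of thinned enterocyte-like cells (35.2% unthinned), in 4.65% of goblet-like cells (25.7%) and in 4.55% of neutrophil-like cells (3 of 66, interval 0.947 to 12.7%, 8.75% unthinned). The goblet-like share lay close to that of the neutrophil-like cells. The enterocyte-like share (interval 7.82 to 9.38%) lay above the neutrophil-like share but inside its interval. Lower shares were seen in enteroendocrine-like (3.09%, 3 of 97), Paneth-like (2.15%, 2 of 93) and crypt progenitor-like cells (0.348%, 1 of 287). Which of these is the background level was not tested, so the goblet-like share is not read either way.

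Ccl25 (ENSMUSG00000023235, chr8:4325210-4360020, plus strand, overlapping Elavl1 on the other strand) was concentrated in a subset of enterocyte-like clusters and in the crypt. The levels were 881 CPM in cluster 21, whose leading genes include Reg1 and S100g, and 878 CPM in cluster 13, led by the carbonic anhydrase Car4 and Ms4a18, with overlapping counting intervals of 840 to 923 and 864 to 892 CPM. The unnamed cluster 11, led by the antimicrobial lectin gene Reg3g, followed at 399 CPM, then cluster 8, led by Mbl2, Cym and Leap2, at 303 CPM, cluster 16 at 290 CPM (interval 271 to 310, overlapping cluster 8) and the crypt progenitor-like cluster 12 at 261 CPM. The lowest levels were 11.6 CPM in the enterocyte-like cluster 6, whose leading genes include Nt5e, and 8.26 CPM in the goblet-like cluster 3.

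Thinned shares of cells with a Ccl25 UMI ran from 75.5% in cluster 13 and 71.7% in cluster 21 to 1.92% in cluster 6 and 1.25% in cluster 3, with unthinned shares of 99.6%, 77.5%, 9.26% and 15.3%. The enterocyte-like class as a whole stood at 13.8%, close to the 15.2% of neutrophil-like cells (10 of 66, interval 7.51 to 26.1%), a cell type that should lack the gene. Goblet-like cells stood at 2.72% and tuft-like cells at 4.76%. The class average is thus no evidence of expression in every enterocyte-like cell, while the intervals of clusters 8, 11, 12, 13 and 21 lay above the neutrophil-like one.

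Cluster 13 alone held 51.6% of all Ccl25 UMIs and cluster 12 another 15.9%, and both came almost entirely from WT2 and KO2. Cluster 11 held 365 WT and 5 KO cells, most without a hashtag: 3, 30 and 9 were assigned to WT mice 1 to 3 and 4 to KO2. The level in cluster 13 was 892 CPM in WT2 and 841 CPM in KO2. In the crypt progenitor-like cells it was 205 CPM in WT2 and 283 CPM in KO2, with 1 mouse a genotype and no test.

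Ccl28 (ENSMUSG00000074715, chr13:119623819-119654359, plus strand) was highest in enteroendocrine-like cells at 57.9 CPM (counting interval 47.3 to 70.1) and next in crypt progenitor-like cells at 34.6 CPM (31.9 to 37.4). Tuft-like cells stood at 8.64 CPM, enterocyte-like cells at 5.54 CPM and goblet-like cells at 4.90 CPM, and the intervals of these 3 overlapped. All 7 tuft-like UMIs lay in 1 cell of WT2, and WT2 held 88 of the 116 goblet-like UMIs of assigned cells. Per mouse the enterocyte-like level was 1.10, 18.1 and 0.781 CPM in WT and 0.364, 10.4 and 0.256 CPM in KO, and the goblet-like level was 1.94, 21.9 and 1.15 CPM in WT and 1.27, 2.03 and 0.775 CPM in KO. Cluster 12 contributed 46.7% of all Ccl28 UMIs and cluster 13 another 23.1%. Within the crypt progenitor-like cells the level was 52.5 CPM in WT2 and 27.4 CPM in KO2. Among thinned cells, 6.19% of enteroendocrine-like (31.3% unthinned) and 8.01% of crypt progenitor-like cells (69.8% unthinned) held a UMI, against 0.396% of enterocyte-like cells (3.68% unthinned).

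The interferon-induced pair and the neutrophil attractant lay mostly in very few cells of these libraries. Of 360 Cxcl9 UMIs in 20 cells, 331 (91.9%) lay in 3 cells: 124 in a Paneth-like cell of KO3, and 112 and 95 in a pair of cluster 19 cells of WT3. Of 483 Cxcl10 UMIs in 55 cells, 434 (89.9%) lay in 12 cells with at least 5 UMIs, of which 6 were in cluster 19 and 3 were Paneth-like. Of 96 Cxcl1 UMIs in 28 cells, 69 lay in 3 cells.

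The same cells recurred. The WT3 cluster 19 cell with 112 Cxcl9 UMIs also held 62 Cxcl10, 22 Cxcl1 and 20 Ccl20 UMIs, and its neighbour with 95 held 101 Cxcl10, 25 Cxcl1 and 19 Ccl20 UMIs. The Paneth-like KO3 cell with 124 Cxcl9 UMIs held 38 Cxcl10 UMIs, 1 Cxcl1 UMI and no Ccl20 UMI. These 3 cells had 54623, 65526 and 113716 UMIs in all, 109, 83 and 258 UMIs of the epithelial marker Epcam, none of the leukocyte marker Ptprc, and 2, 0 and 1 UMIs over the T cell, macrophage and neutrophil lists.

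Ccl20 (ENSMUSG00000026166, chr1:83116766-83119167, plus strand) was similarly uneven. One enterocyte-like cell of KO2 in cluster 16 held 298 of its 830 UMIs together with 22 Cxcl1 UMIs, and a pair of cluster 19 cells of KO3 held 181 and 57. Ccl20 was seen in 115 cells, 82 of them with a single UMI, and 16 cells with at least 5 UMIs held 84.9% of the UMIs. Cluster 19 cells had a median of 60705 UMIs, and there were 93 of them (39 WT and 54 KO). The KO3 cell with 57 Ccl20 UMIs also held 22 UMIs of immune markers. Doublets of cells from the same mouse were not removed, and their part in these cells was not tested.

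**Figure D2:**
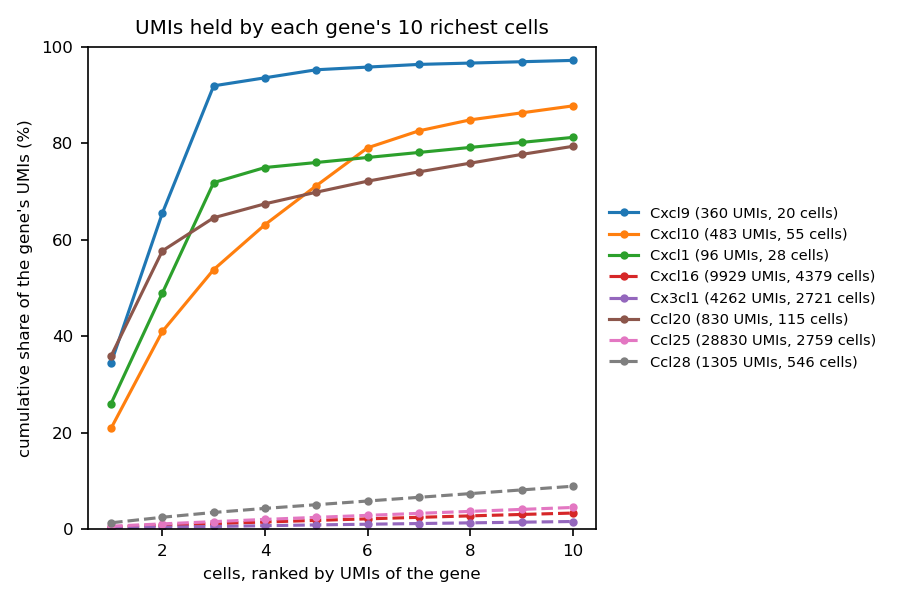
Cumulative percent of each member's UMIs (y axis) held by its 10 richest cells, ranked on the x axis, over 8737 cells. The 10 richest cells held 97.2% of Cxcl9, 87.8% of Cxcl10, 81.3% of Cxcl1 and 79.4% of Ccl20 UMIs, but 3.32% of Cxcl16, 1.57% of Cx3cl1, 4.48% of Ccl25 and 8.89% of Ccl28 UMIs.

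Mice of the library labelled KO were then compared with those of the library labelled WT. Across all cells no member passed the test, and the largest fitted differences were in opposite directions: Cxcl10 lower and Ccl20 higher in KO. Cxcl10 stood at 9.96, 2.14 and 11.8 CPM in WT mice 1 to 3 and at 5.23, 0.528 and 3.11 CPM in KO mice 1 to 3. WT2 lay below KO1 and KO3, so the groups overlap, although each KO mouse was lower than the WT mouse with its hashtag number. The labels state no such pairing, and the share of all genes with this order was not computed. The Cxcl10 means were 7.98 ± 5.15 and 2.95 ± 2.35 CPM (SD, n = 3 mice). Its log2 fold change was −1.69 (SE 1.02, adjusted p = 0.989, edgeR quasi-likelihood test). A Cxcl10 UMI was held by 5, 7 and 4 cells of the WT mice and by 10, 6 and 6 cells of the KO mice.

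With mice of equal hashtag number as a block, the Cxcl10 log2 fold change was −1.77 (SE 0.256, adjusted p = 0.0357 by edgeR), past the threshold of 0.05. This blocked call rests on few cells. Without the 5 cells richest in each of Cxcl9, Cxcl10, Cxcl1 and Ccl20 (14 cells), Cxcl10 no longer passed the filter on low counts, and without its own 5 richest cells its level was 1.27, 0.285 and 0.145 CPM in WT and 2.18, 0.528 and 3.11 CPM in KO mice, which turns the direction. Of the 5 cells, 4 were WT and 1 was KO, and those ranked 6 and 7 were KO cells with 38 and 17 UMIs. The cells were picked by the same UMIs, so the turned direction does not test the genotype difference. Leaving out a pair of mice within the block gave adjusted p-values of 0.00475 to 0.208 by edgeR, above the threshold without pair 2 (0.0927) and without pair 3 (0.208).

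Cxcl9 was at 0.0897, 0.0949 and 14.9 CPM in WT and at 0.611, 0.222 and 8.35 CPM in KO mice. It was high in 1 mouse of each genotype, the mice that carried its 3 richest cells, and too low elsewhere to enter the test. Cxcl1 was at 0.359, 0.190 and 4.02 CPM in WT and at 0, 0.694 and 0.194 CPM in KO mice, and also did not enter the test. Ccl20 was at 1.97, 5.17 and 3.44 CPM in WT and at 0.679, 9.89 and 16.8 CPM in KO mice, with overlapping groups, and the fitted log2 difference was 1.24 (SE 0.979, adjusted p = 0.989 by edgeR). Without its 5 richest cells it was at 1.97, 4.06 and 2.02 CPM in WT and at 0.679, 1.61 and 1.43 CPM in KO mice, the opposite order. Those cells were picked by the same UMIs and held 298, 181 and 57 in KO and 24 and 20 in WT, so this order does not test the genotype difference. Without the 14 richest cells the log2 fold change was −0.92 (adjusted p = 0.989 by edgeR). In the block without WT1 and KO1 it was 1.42 (SE 0.279, adjusted p = 0.0162 by edgeR), a setting that called 8.88% of all genes.

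**Figure D3:**
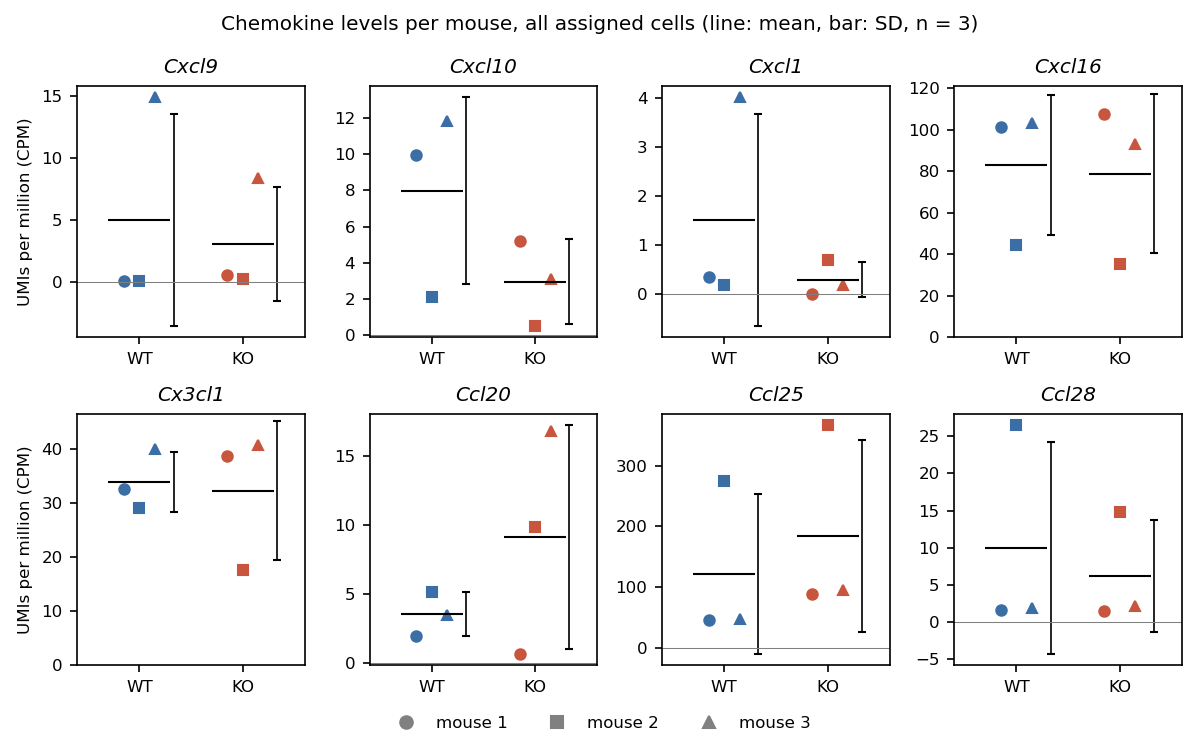
CPM of each member in all assigned cells, 1 symbol per mouse, with the symbol shape giving the hashtag number, the line the group mean and the bar the SD (n = 3 mice a genotype). The y axes differ between genes and start at or below 0 where the SD reaches below it. Mice with hashtag number 2 lie apart for Ccl25, Ccl28 and Cxcl16 in both genotypes, and WT3 and KO3 carry nearly all Cxcl9.

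The membrane-bound chemokines did not differ beyond the spread between mice. Cxcl16 was at 101.5, 44.2 and 103 CPM in WT and at 108, 35.4 and 93.1 CPM in KO mice, and Cx3cl1 was at 32.5, 29.1 and 40.0 CPM in WT and at 38.7, 17.5 and 40.6 CPM in KO mice. In both genotypes the mouse with hashtag number 2 was lowest. The log2 fold changes were −0.30 (SE 0.595) for Cxcl16 and −0.26 (SE 0.424) for Cx3cl1, both with an adjusted p of 0.989 by edgeR. Without clusters 12 and 13 the Cxcl16 levels drew together, at 101.5, 71.4 and 104 CPM in WT and 108, 77.7 and 94.2 CPM in KO mice.

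Ccl28 was at 1.71, 26.5 and 1.94 CPM in WT and at 1.49, 14.8 and 2.14 CPM in KO mice, high in the mice that held clusters 12 and 13. The log2 fold change was −0.74 (SE 1.24, adjusted p = 0.989 by edgeR) and became 1.38 without WT2. Over all cells, 6 of the 8 members passed the filter on low counts and 0 were called (0.0% of 12944 genes called), none of them had an unadjusted p under 0.05 (0 of 6), and 0 were called by DESeq2. With the block, 1 of the 6 was called lower and 0 higher, where 1.17% of genes were called, 0.973% of genes called lower and 0.201% called higher. In that fit 4 of the 6 had an unadjusted p under 0.05 by edgeR, as did 2868 of the 12944 genes. Without the block the median log2 fold change of the 6 tested members was −0.28, beside 0.06 over all genes tested. For 0 of the 8 members did the 3 KO mice lie wholly above or below the 3 WT mice, as they did for 5.64% (above) and 1.83% (below) of the 17238 genes with at least 10 UMIs.

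For the homing chemokine Ccl25, all 3 KO mice exceeded the WT mouse with their hashtag number, a pairing that the labels do not state. The share of all genes with such an order was not computed. Over all cells Ccl25 was at 45.7, 274 and 48.1 CPM in WT and at 89.5, 366 and 96.0 CPM in KO mice. WT2 exceeded KO1 and KO3, so the groups overlap. The log2 fold change was 0.51 (SE 0.802, adjusted p = 0.989 by edgeR) and −0.38 without KO2, and with the block 0.61 (SE 0.133, adjusted p = 0.0790 by edgeR). Without clusters 12 and 13 the blocked value was 0.72 (adjusted p = 0.0490 by edgeR), a setting that called 0.698% of all genes.

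In enterocyte-like cells Ccl25 was at 62.4, 472 and 58.6 CPM in WT and at 137, 636 and 160 CPM in KO mice. WT2 and KO2 were high, and the other KO mice lay above the other WT mice. The log2 fold change was 0.57 (SE 0.963, adjusted p = 0.921 by edgeR) and, with the hashtag block, 0.83 (SE 0.170, adjusted p = 0.0218 by edgeR). Without KO2 and without the block it was −0.46 (adjusted p = 0.999 by edgeR). Without cluster 13 it was 1.06 (adjusted p = 0.249 by edgeR) and, with the block, 1.07 (adjusted p = 0.00219 by edgeR), where 13.3% of all genes were called. Leaving out pairs 1, 2 and 3 in turn within the block gave 0.76, 1.08 and 0.64, of which the last, without WT3 and KO3, had an adjusted p of 0.158 by edgeR.

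Of the 3 members tested in enterocyte-like cells, 0 were called without the block (0.0% of 10493 genes), 0 by DESeq2, and 0 had an unadjusted p under 0.05. With the block 1 was called higher and 0 lower, where 7.52% of genes were called higher and 14.2% in either direction. In that fit 2 of the 3 had an unadjusted p under 0.05 by edgeR, as did 3432 of the 10493 genes. Against that background a single called member is not a result about the members as a group. Cxcl16 was at 106, 56.6 and 113 CPM in WT and at 115, 39.2 and 97.0 CPM in KO mice, and Cx3cl1 at 48.6, 43.5 and 50.4 CPM in WT and at 49.0, 29.6 and 58.0 CPM in KO mice. Their log2 fold changes were −0.32 (SE 0.507) and −0.23 (SE 0.311), with overlapping groups. In the block without WT1 and KO1, Cxcl16 was called lower (−0.54, SE 0.155, adjusted p = 0.0338 by edgeR), where 15.8% of all genes were called. The groups of all 8 members overlapped in these cells, where 6.99% of genes lay wholly higher and 2.58% wholly lower in KO.

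**Figure D4:**
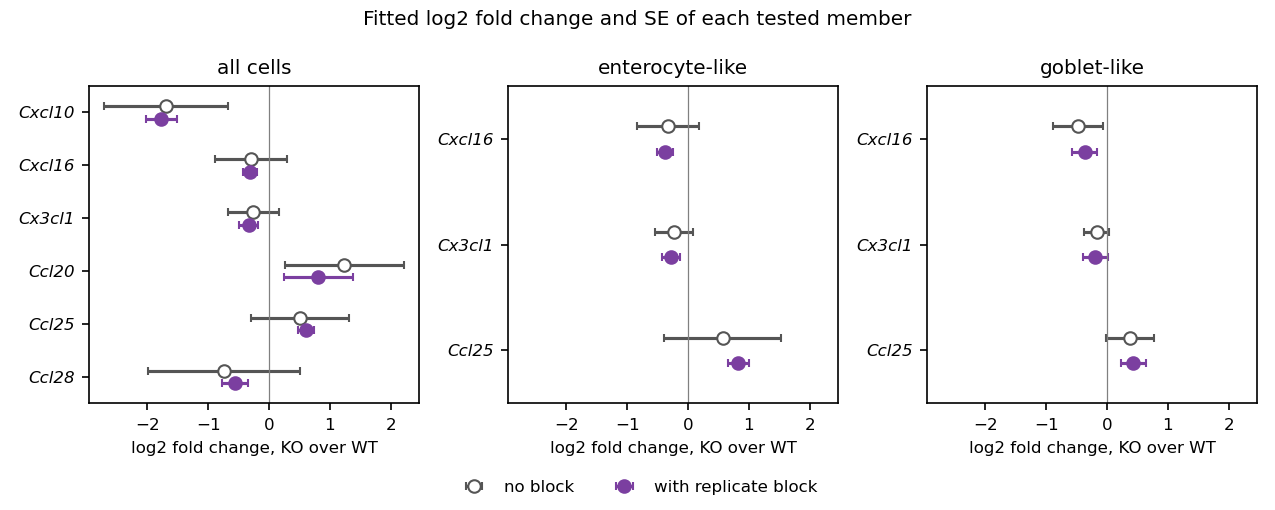
Fitted log2 fold change, KO over WT, of each member that passed the filter on low counts, in all cells, enterocyte-like and goblet-like cells. Points are edgeR estimates, bars are 1 SE, open symbols have no block and filled symbols have mice of equal hashtag number as a block. The block shrinks the SE of Ccl25 in enterocyte-like cells from 0.963 to 0.170.

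The enterocyte-like class mixes clusters with very different Ccl25 levels, so the gene was also compared inside clusters. Clusters 1, 3 and 10 had at least 20 cells of every mouse, and cluster 8 had 19 to 71. In cluster 10, led by Slc5a12 and Cubn, Ccl25 was at 87.5, 81.7 and 82.7 CPM in WT and at 131, 128 and 153 CPM in KO mice, and in cluster 8 it was at 207, 264 and 225 CPM in WT and at 356, 355 and 298 CPM in KO mice. In the goblet-like cluster 3 it was at 5.04, 5.68 and 7.18 CPM in WT and at 12.1, 9.06 and 11.0 CPM in KO mice, from 7 to 28 UMIs a mouse. That level lay below the 82.9 CPM of neutrophil-like and the 42.0 CPM of tuft-like cells, so in cluster 3 it is read as background and not as expression. In cluster 10 the WT levels lay close to the neutrophil-like one. Its thinned share of cells with a UMI was 16.2%, beside 15.2% of neutrophil-like cells, so expression in cluster 10 is not told apart from background.

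All 3 KO mice lay above all 3 WT mice in clusters 8 and 10, by 1.45 and 1.63 times in the means. The same order held in cluster 3 (1.80 times), whose level is read as background. KO was thus also higher where no expression is read, and the part of free RNA in clusters 8 and 10 was not tested. The 2-sided exact permutation p was 0.1 in each of clusters 3, 8 and 10, the smallest that 3 against 3 mice can give. KO mice lay wholly above WT mice for 17.4% of genes in cluster 3, 15.8% in cluster 8 and 9.95% in cluster 10. In cluster 1 the groups overlapped, at 13.7, 27.9 and 22.9 CPM in WT and 35.1, 18.995 and 36.8 CPM in KO mice (exact permutation p = 0.3, and 15.6% of genes wholly higher). These levels lay below the pooled tuft-like and neutrophil-like ones, so expression in cluster 1 is not told apart from background. With at most 15% mitochondrial UMIs, which left 5 to 22 cells a mouse in cluster 10, the order there turned: 147.5, 121 and 117 CPM in WT and 124, 113 and 111 CPM in KO mice. Clusters 3 and 8 kept KO above WT at that limit.

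**Figure D5:**
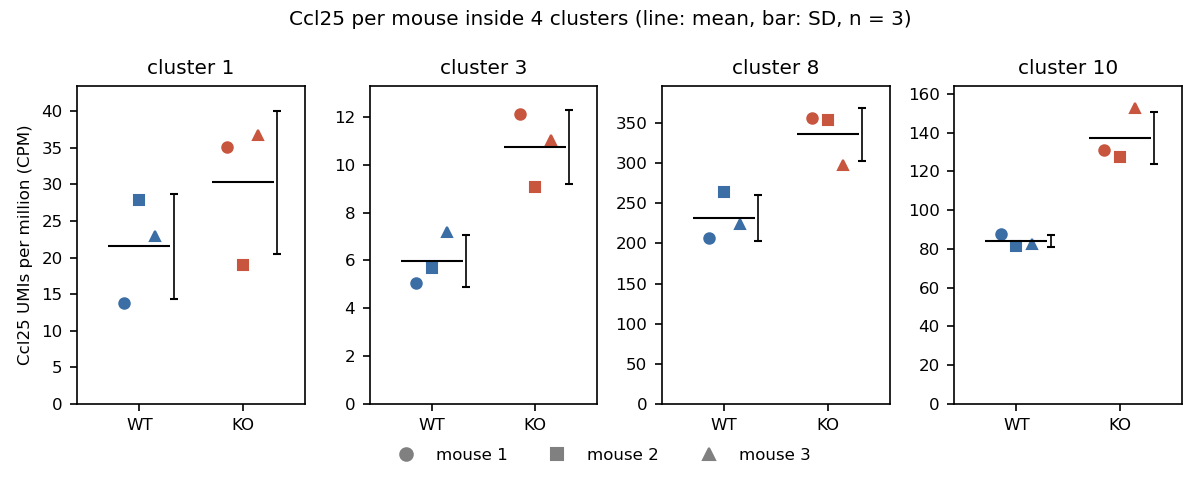
Ccl25 level in CPM per mouse inside clusters 1, 3, 8 and 10, with the line at the mean and the bar at the SD (n = 3 mice a genotype) and the y axis from 0. The KO mice lie above the WT mice in clusters 3, 8 and 10 and overlap them in cluster 1. The level in cluster 3 is read as background, and those in clusters 1 and 10 are not told apart from it.

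In goblet-like cells the same 3 members could be tested, 0 were called with or without the block, and the background was 0.0207% without it and 0.392% with it. None of the 3 had an unadjusted p under 0.05 by edgeR, and DESeq2 called 0. Cxcl16 was at 89.3, 45.3 and 69.5 CPM in WT and at 68.6, 49.4 and 49.1 CPM in KO mice (log2 fold change −0.48, SE 0.414, adjusted p = 0.9997 by edgeR). The groups overlapped through WT2. Without WT2 and KO2 the log2 fold change was −0.70 (SE 0.182, adjusted p = 0.0303 by edgeR), and within the block without that pair it was −0.70 (adjusted p = 5.83e-06 by edgeR). Ccl25 was at 7.74, 35.9 and 12.1 CPM in WT and at 16.4, 32.3 and 22.2 CPM in KO mice. Every mouse lay below the pooled 42.0 CPM of tuft-like and 82.9 CPM of neutrophil-like cells, so this level is not told apart from background. Per mouse the tuft-like level rested on 1 to 22 UMIs. It was 15.7 CPM in KO2 and 17.3 CPM in KO3, below their goblet-like levels, and lay above the goblet-like level in the other mice. In the block without WT2 and KO2 the Ccl25 log2 fold change was 0.70 (adjusted p = 0.0330 by edgeR). These settings called 11.8% (without the block) and 19.5% (with it) of all genes.

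Ccl20 was the only member whose goblet-like groups did not overlap, at 2.21, 1.49 and 1.73 CPM in WT and 1.27, 0.813 and 0.258 CPM in KO mice. These levels rest on 8, 6 and 6 UMIs in WT and 4, 4 and 1 UMIs in KO mice, too few to enter the test, and 3.48% of genes lay wholly lower and 3.79% wholly higher in KO. The test of whether genotype acted differently in goblet-like than in enterocyte-like cells called 0 of the 5 members tested (0.0% of 11225 genes), 0 by DESeq2, and 0 had an unadjusted p under 0.05. For Ccl25 this difference was −0.29 (SE 0.521, adjusted p = 1 by edgeR).

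The share of cells with a UMI was compared for the broadly detected members. In thinned cells Cxcl16 was present in 17.5, 11.9 and 19.02% of WT and 21.4, 12.8 and 17.2% of KO cells (exact permutation p = 0.8, Benjamini-Hochberg adjusted over 8 members 1). Ccl25 was present in 6.86, 19.2 and 6.72% of WT and 8.73, 22.9 and 10.4% of KO cells (exact permutation p = 0.5, adjusted 1). Cx3cl1 was present in 6.99, 7.65 and 8.84% of WT and 7.06, 5.47 and 9.004% of KO cells (exact permutation p = 0.7, adjusted 1). Without thinning, Cxcl9 was seen in 0.118, 0.231 and 0.188% of WT and 0.388, 0.302 and 0.593% of KO cells, and Cxcl1 in 0.473, 0.462 and 0.847% of WT and 0, 0.402 and 0.356% of KO cells. The groups did not overlap for either (exact permutation p = 0.1, the smallest possible, adjusted 0.4), on 0 to 9 cells a mouse. Kept barcodes were deeper in KO (median 10851.5 UMIs) than in WT (7127), and the share of all genes without overlap was not computed. After thinning, the mean shares in WT and KO were 0.142 and 0.146% for Cxcl9 and 0.0409 and 0.0400% for Cxcl1, so no difference is read.

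Over 15 sums of 1 mouse and 1 named class, the genes most like Cxcl16 were Mxd1 (Pearson r of log2(CPM + 10) 0.985), Leng9 and Ahnak, and those most like Cx3cl1 were Tmem263 (0.982), Il13ra1 and Sectm1b. Those most like Ccl25 were Ddc (0.989), which encodes aromatic amino acid decarboxylase, Aprt and Pex19. Those most like Ccl28 were Nop53 (0.935), Mt2 and Add3, and those most like Ccl20 were Ms4a18 (0.929), Ces1f and Rmdn1. Ccl28 averaged 9.33 CPM, under the 10 CPM that a matched gene had to reach, and its highest sums came from WT2 and KO2. Its likeness was not computed without those mice. Ccl20 averaged 3.05 CPM over these sums, with 298 of the 310 UMIs of the KO2 enterocyte-like sum in 1 cell, and Cxcl9, Cxcl10 and Cxcl1 averaged under 2 CPM, so no likeness is read for these 4. The sums share libraries, and 12 of the 15 are enterocyte-like or goblet-like.

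The receptors of these chemokines gave few UMIs. In all 8737 cells there were 1 UMI of Cxcr3, 20 of Cxcr6, 98 of Ccr9, 18 of Ccr10 and 1 of Ccr6, and 86.4% of the 59 UMIs of Cxcr2 lay in the neutrophil-like cluster 20. Only Ackr4, a scavenger of Ccl25 and other chemokines, could be tested among 19 receptors, and it was not called. Adam10, a sheddase of the membrane-bound members, was at 118, 104 and 129 CPM in WT and 140, 93.9 and 120 CPM in KO mice, and 0 of 6 genes in the shedding and trimming list were called with or without the block. Of 27 other chemokine genes in the files, 4 could be tested over all cells and 0 were called.

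Signalling genes that act upstream of these chemokines were described from fixed lists. In the interferon signalling list, 0 of 19 genes were called without the block and 4 were lower with it over all cells, where 0.973% of genes were: Irf9 (log2 fold change −1.46, adjusted p = 0.0183 by edgeR), Irf7 (−1.22), Stat2 (−1.14) and Socs3 (−0.94). Irf9, the DNA-binding part of the ISGF3 complex, was at 31.0, 20.5 and 43.0 CPM in WT and at 14.1, 9.69 and 14.1 CPM in KO mice, with no overlap, as for 1.83% of genes that lay wholly lower in KO. In enterocyte-like cells 6 of 19 were lower with the block, among them Irf9 (−1.37), Irf7 (−1.23) and Jak2 (−0.73), where 6.64% of genes were called lower. In goblet-like cells 1 was lower, Irf9 (−1.73, adjusted p = 0.0254 by edgeR), against 0.299% of genes. The list's median log2 fold change in the block was −0.28 over all cells, beside 0.05 for all genes.

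In the NF-κB and IL-17 list, which holds inducers of Cxcl1 and Ccl20, 0 of 18 tested genes were called without the block and 3 were lower with it over all cells (0.973% of genes): the inhibitors Tnfaip3 (−1.09, adjusted p = 0.0190 by edgeR) and Nfkbia (−1.08), and the IL-22 receptor chain Il22ra1 (−0.97). Nfkbia was at 207, 159 and 251 CPM in WT and at 115, 82.1 and 135 CPM in KO mice, with no overlap, as for 1.83% of genes. In enterocyte-like cells 5 of 18 were lower in the block (6.64% of genes), adding Traf6 (−0.64) and Nfkb1 (−0.48), and 0 of 17 in goblet-like cells.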

How the data were processed

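Per the labels, cells of 3 hashtagged mice a genotype were pooled into 1 library of each genotype; the deposited matrices hold raw UMI counts of 32285 genes and 3 hashtags, made with Cell Ranger 7.0.1 on mm10 per the submitters' processing notes, which also name Seurat 4.1.0. A second experiment was not analysed here. Barcodes with at least 1000 UMIs, 500 genes and at most 25% mitochondrial UMIs were kept: 5563 of 10453 WT and 4028 of 7370 KO. HTODemux (Seurat 5.3.0, quantile 0.99, all barcodes) marked 549 WT and 305 KO hashtag doublets, which were removed, and left 2241 and 855 cells without a mouse, used for clusters only. The remaining 8737 cells were clustered with scanpy 1.11.5 and leidenalg 0.10.2 (2000 variable genes, 30 components, 15 neighbours, resolution 1), without chemokine, interferon-stimulated, antigen presentation, mitochondrial, ribosomal, haemoglobin or sex-linked genes. A cluster was named where the best marker score was at least 0.3 and led by 0.15, 3 markers reached 20 CPM and its 10 leading genes held no more markers of another class; these score rules were set after the clusters were seen.

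Counts were summed per mouse and tested with edgeR 4.0.16 (quasi-likelihood, TMM, filterByExpr, Benjamini-Hochberg over all genes tested, threshold 0.05) in R 4.3.3; DESeq2 1.42.0, other filters, left-out mice and clusters, and a block by hashtag number were alternatives. Deviations of same-numbered mice correlated above 0.1 in every pair (0.416, 0.854 and 0.638 in all cells). The blocked value is therefore given where it changes a call, although the labels state no pairing. Mice of numbers 1 and 3 correlated as much across numbers (WT1 with KO3 0.461, WT3 with KO1 0.638). WT2 ran against KO1 (−0.701) and KO3 (−0.727). These values set number 2 apart but do not show that 1 pairs with 1 or 3 with 3. With 1 pool a genotype, p-values cover the spread of mice inside the pools. Levels are CPM of summed UMIs; shares come from cells thinned to 2000 UMIs, with exact Clopper-Pearson intervals, tested over mice by exact permutation (2-sided, smallest p 0.1); intervals and limits cover counting error only. The code was tested on simulated data. Members, lists and the naming rule (all 8 members, the 3 genes most like each, and list genes past the threshold, at most 5 a list) were chosen with earlier results of these data known. Jak2, Adam10 and Ackr4 fall outside that rule and were named after their values were seen.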

Additional observations from a re-analysis of the deposited data

Results flagged for a closer look

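Ccl25 was also higher in the KO than in the WT library among barcodes outside the filters on UMIs, genes and mitochondrial share, which entered no comparison. Its level was 35.5 CPM (95% counting interval 33.1 to 38.0) in 3342 KO barcodes and 30.7 CPM (28.9 to 32.6) in 4890 WT barcodes. It stands here because the KO level lay above the WT interval; each value comes from 1 library with no mice told apart, so there is no test. Of the other members only Cxcl9 had the higher value in KO there, with 4 UMIs in KO and 3 in WT. Cxcl16 was at 70.01 CPM in KO and 76.04 CPM in WT.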

How the results depend on the processing

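Counts of genes called changed widely between settings, and the members' values moved as well. Over all cells 0 genes were called, but 152 with the replicate block, 38 by DESeq2, 9 without both mice of hashtag number 2, 10 without clusters 12 and 13 (90 with the block as well), 183 with the block and without the 14 cells richest in the sparse members, and 36, 55 and 1212 in the block without 1 pair. In enterocyte-like cells the 0 became 1486 with the block, 50 by DESeq2, 723 without both mice of number 2, 99 without cluster 13 (1325 with the block), 1595 with cluster 1 counted in and the block, and 182, 1249 and 1748 in the block without 1 pair. In goblet-like cells the 2 became 38 with the block, 28 by DESeq2, 12 without a filter on low counts, 0 at most 15% mitochondrial UMIs, 0 at the hashtag ratio of 3, 555 at resolution 0.6, 1100 without both mice of number 2, 0 to 199 without 1 mouse (199 without WT2) and 67 to 1822 in the block without 1 pair. The interaction count of 0 became 94 without both mice of number 2. The cause of these shifts was not tested. Settings with 2 mice a genotype or 1 pair fewer have fewer samples.

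Member log2 fold changes turned without 1 mouse for Cxcl16 (−0.66 to 0.081 over all cells, −0.64 to 0.012 in enterocyte-like cells), Cx3cl1 (−0.50 to 0.075 and −0.47 to 0.0054), Ccl25 (−0.38 to 1.61 and −0.46 to 2.10), Ccl28 (−2.39 to 1.38) and the Ccl25 interaction (−0.95 to 0.22). Ccl20 turned to −0.92 without the 14 richest cells, −0.83 with the block added, and −0.060 in the block without pair 3. Differences in the share of cells, in percentage points, turned for Cxcl9 (−0.028), Cx3cl1 (0.116) and Ccl20 (−0.092) at 1000 UMIs, and for Cxcl10 (0.170), Cx3cl1 (4.13) and Ccl28 (0.040) without thinning. Ccl25 in cluster 10 turned to −12.4 CPM at most 15% mitochondrial UMIs. Of 229 alternatives for member fold changes, 9 planned and 3 added ones turned the sign. The alternatives on clusters, richest cells, pairs and Ccl25 inside clusters were chosen after seeing the data. Cxcl9 and Cxcl1 are limited by depth, with 360 and 96 UMIs in all.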

Other observations

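Other chemokines, named after their values were seen, were also concentrated in single clusters. Ccl6, a myeloid-type CC chemokine, had 30189 UMIs, of which 53.0% lay in the goblet-like cluster 14 (1986 CPM), led by Spink4 and Hpd, and Ccl9 had 3987 UMIs with 64.4% in the same cluster (319 CPM). Both were among that cluster's 10 leading genes, of which 1 was a goblet marker. The class of such cells depended on the resolution of the clustering: at 0.6 the Paneth-like cluster had 281 cells in place of 96. WT2 then had 67 goblet-like cells in place of 127 and 70 Paneth-like cells in place of 10. KO2 had 115 goblet-like cells in place of 162 and 55 Paneth-like cells in place of 8. The goblet-like name of cluster 14 is thus given for resolution 1, and Ccl6 and Ccl9 are not read as goblet cell genes. Over all cells Ccl6 was at 239.7, 273 and 164 CPM in WT and at 401, 144.5 and 457 CPM in KO mice, with overlapping groups.

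The neutrophil-like cluster 20, 80 cells in a sort for CD45-negative cells, held 84.1% of the 891 Cxcl2 UMIs, 96.1% of the 466 Ccl5 UMIs, 94.1% of the 118 Ccl4 UMIs and 92.0% of the 112 Ccl3 UMIs. WT1 gave 21 of its assigned cells and each other mouse 0 to 2. Cxcl5, another neutrophil attractant, had 102 UMIs, of which 65.7% lay in cluster 16, the cluster with the cell richest in Ccl20.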
